A study of Mus musculus with 27 samples.

Results

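The RNA-seq libraries of pre-induced pluripotent stem cells (pre-iPSCs) and of mouse embryonic fibroblasts (MEFs) were compared here, 4 of the 27 samples of the series. They were chosen by cell type alone, with 1 library of each cell type in a first table of expression values and 1 of each in a repeat table. The MEFs were taken from E13.5 embryos of crosses of Oct4-GFP transgenic males (CBA/CaJ and C57BL/6J background, also carrying a Rosa26 allele) with 129Sv/Jae females, and were grown for at most 3 passages. The pre-iPSCs came from such MEFs after retroviral delivery of Pou5f1 (Oct4), Sox2, Klf4 and Myc, and were stable clones kept for 6 passages on mitomycin C-treated MEF feeder cells in serum and leukemia inhibitory factor (LIF) medium. The iPSC libraries entered the filter on low values and the estimate of the spread between libraries, and were not tested against the others. The study used a pair of pre-iPSC clones, and which clone gave which library is not stated in the sources used here.

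Pre-iPSCs are cells that stall on the way to pluripotency. They have taken on the colony form and rapid growth of stem cells and shed much of the fibroblast program, but the endogenous pluripotency network is not yet stably switched on and the viral factors are still expressed. Fibroblasts are held in their state by mesenchymal transcription factors, by transforming growth factor beta (TGF-beta) signaling and by an actin cytoskeleton under tension. Leaving that state usually begins with a mesenchymal-to-epithelial transition, in which the junction protein E-cadherin and its partners replace the mesenchymal genes.

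Levels are in FPKM, the fragments of a gene scaled to its length and to library size, given for the first and then the repeat library. Each library listed 10370 to 10862 of the 20156 genes at 1 FPKM or more, and the FPKM of all genes summed to 441736 to 818207, with the highest sum in the repeat MEF library. Changes are differences of log2(FPKM + 1), pre-iPSC minus MEF, which understate the change of low genes. They were fitted with limma on the 12401 genes that averaged 0.5 FPKM or more across 6 libraries (iPSCs included). A call required 2-fold or more with an adjusted p below 0.05. Between the cell types 916 genes (7.39%) were called higher in pre-iPSCs and 1116 (9.0%) lower, and the median change of all tested genes was -0.04. At least 8-fold changes on this scale were found for 212 of the higher and 211 of the lower genes. Both pre-iPSC libraries lay above both MEF libraries for 3053 tested genes (24.6%) and below them for 3628 (29.3%), which included all called genes. With no filter on low values 586 genes were called higher and 658 lower, and named genes that lose their call there are marked as lost without the filter. Without the repeat pre-iPSC library 610 genes were called higher and 415 lower, and the lower count was 731 without the first pre-iPSC library and 720 or 713 without the first or the repeat iPSC library. In bulk RNA, fewer cells of a type and less RNA per cell cannot be told apart, and the pre-iPSC libraries may hold RNA of the feeder MEFs.

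**Figure D1:**
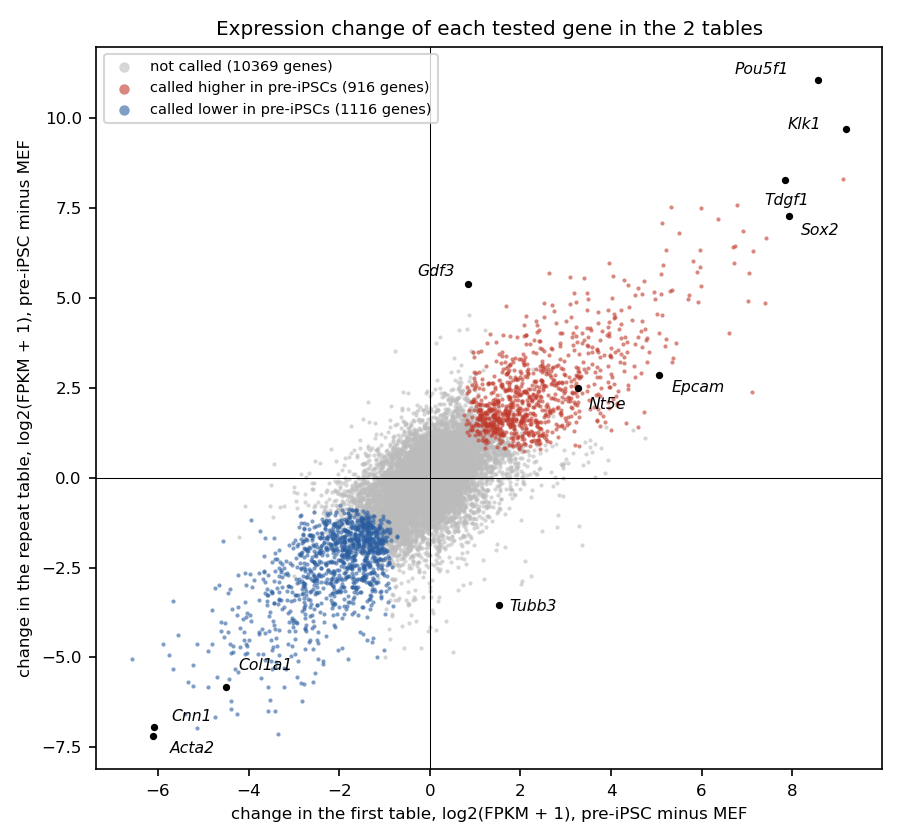
Each point is a tested gene, placed by its change in the first table (x axis) and in the repeat table (y axis), both as pre-iPSC minus MEF in log2(FPKM + 1). The 916 genes called higher (red) lie in the upper right and the 1116 called lower (blue) in the lower left, while Gdf3 and Tubb3, which were not called, changed mainly in the repeat table or in opposite directions. Black points are named genes.

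The 4 delivered factors were all called higher, against 7.39% of all tested genes. Pou5f1, the central regulator of pluripotency (mm9 chr17:35642977-35647722), stood at 0 and 0.50 FPKM in MEFs and 378 and 3184 FPKM in pre-iPSCs (log2 change 9.81 ± 0.77 (SE), adjusted p = 0.000938, limma). Sox2, its DNA-binding partner, went from 0.124 and 0.128 to 272 and 171 FPKM (log2 change 7.59 ± 0.43 (SE), adjusted p = 0.000373, limma). In both genes the MEF libraries were near 0, and the pre-iPSC libraries differed from each other most in Pou5f1. Klf4 was already present in MEFs at 25.1 and 37.6 FPKM and reached 674 and 782 FPKM, a rise of 26.8-fold and 20.8-fold in the 2 tables. Myc, which drives growth and proliferation, stood at 57.8 and 36.3 FPKM in MEFs and 337 and 816 FPKM in pre-iPSCs, or 5.83-fold and 22.5-fold. The FPKM of a factor does not separate the endogenous gene from the delivered copy, and these cannot be told apart in the tables.

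Of the 16 naive pluripotency transcription factors, the endogenous regulators that hold the ground state, 6 were called higher and 0 lower. The shares of all tested genes were 7.39% and 9.0%. Of the 16, 7 were listed at 0 in both MEF libraries and could not be called lower. Of the 10 not called, 3 were below 0.5 FPKM in all 4 libraries and passed the filter only through the iPSC libraries. Nanog and Esrrb, which stabilize that state, were nearly silent in all 4 libraries. Nanog was listed at 0 and 0 FPKM in MEFs and 0.519 and 0 FPKM in pre-iPSCs, and Esrrb at 0.0233 and 0 FPKM in MEFs and 0.0188 and 0.0335 FPKM in pre-iPSCs. Zfp42 (Rex1), a marker of naive cells, was at 0 and 0.0837 FPKM in pre-iPSCs and Prdm14, which restrains differentiation signals, at 0.22 and 0.112 FPKM. A further set of factors was expressed at 1.67 to 21.9 FPKM after being near 0 in MEFs. Zscan10 was listed at 0 and 0 FPKM in MEFs and rose to 21.9 and 7.63 FPKM (adjusted p = 0.00256, limma). Nr0b1 (Dax1), a partner of Oct4, rose from 0 and 0 to 15.9 and 10.1 FPKM (adjusted p = 0.00212, limma). Sall1 and Sall4, zinc finger factors of early embryos, reached 16.3 and 4.99 FPKM (Sall1) and 8.08 and 4.12 FPKM (Sall4), and Gbx2 reached 7.03 and 1.67 FPKM. In 13 of the 16 factors the first pre-iPSC library was the higher one, against 7437 of all 12401 tested genes. Nr5a2, which can activate Pou5f1, was at 10.6 and 1.07 FPKM and did not pass the test (adjusted p = 0.0786, limma). Klf2 and Klf5 were already at 16.8 and 48.4 FPKM (Klf2) and 16.5 and 10.2 FPKM (Klf5) in MEFs and were not called. Tbx3 was lower in both pre-iPSC libraries, at 1.14 and 0.626 against 6.45 and 3.64 FPKM, and missed the threshold (log2 change -1.66, adjusted p = 0.0632, limma). Without either MEF library in turn, 1 factor of the list was called lower. The call of Gbx2 was lost without the filter.

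Among 24 other genes of pluripotent cells, 9 were called higher and 0 lower, against 7.39% and 9.0% of all tested genes. Of the 24, 14 were listed at 0 in both MEF libraries and could not be called lower. In all 4 libraries 6 were below 0.5 FPKM, and these were tested only because of the iPSC libraries. Tdgf1 (Cripto), a co-receptor for Nodal, rose from 0 and 0.0833 to 228 and 333 FPKM (log2 change 8.05 ± 0.36 (SE), adjusted p = 0.000275, limma). L1td1, an RNA-binding protein of stem cells, rose from 0.034 and 0 to 109.7 and 85 FPKM (log2 change 6.58). Fbxo15, whose promoter has long served as a reprogramming reporter, reached 54.7 and 70.3 FPKM from 0 and 0.104 FPKM. Alpl, the alkaline phosphatase by which stem cell colonies are stained, reached 55.5 and 43.8 FPKM from 0.0805 and 0.436 FPKM. For these 4 genes both pre-iPSC libraries were far above both MEF libraries and close to each other. Fgf4, the autocrine growth factor regulated by Oct4 and Sox2, was listed at 0 in both MEF libraries and at 23.1 and 13.9 FPKM in pre-iPSCs, and Utf1 at 23.2 and 1.67 FPKM. Fut9, which makes the SSEA-1 epitope, was at 3.08 and 3.23 FPKM and Dppa5a at 1.7 and 5.01 FPKM. Other members stayed low. Dppa3 (Stella) was listed at 0 in all 4 libraries, and Dppa2, Dppa4, Lefty2 and Tcl1 were below 0.5 FPKM in all of them. A few genes were uneven between the pre-iPSC libraries and were not called. Gdf3, a growth factor of the TGF-beta superfamily, was at 0.788 and 40.5 FPKM, and Nodal at 10.2 and 0.354 FPKM. Lin28a, which blocks let-7 processing, was at 1.24 and 0 FPKM and its paralog Lin28b at 4.23 and 0.877 FPKM. The call of Utf1 was lost without the filter.

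**Figure D2:**
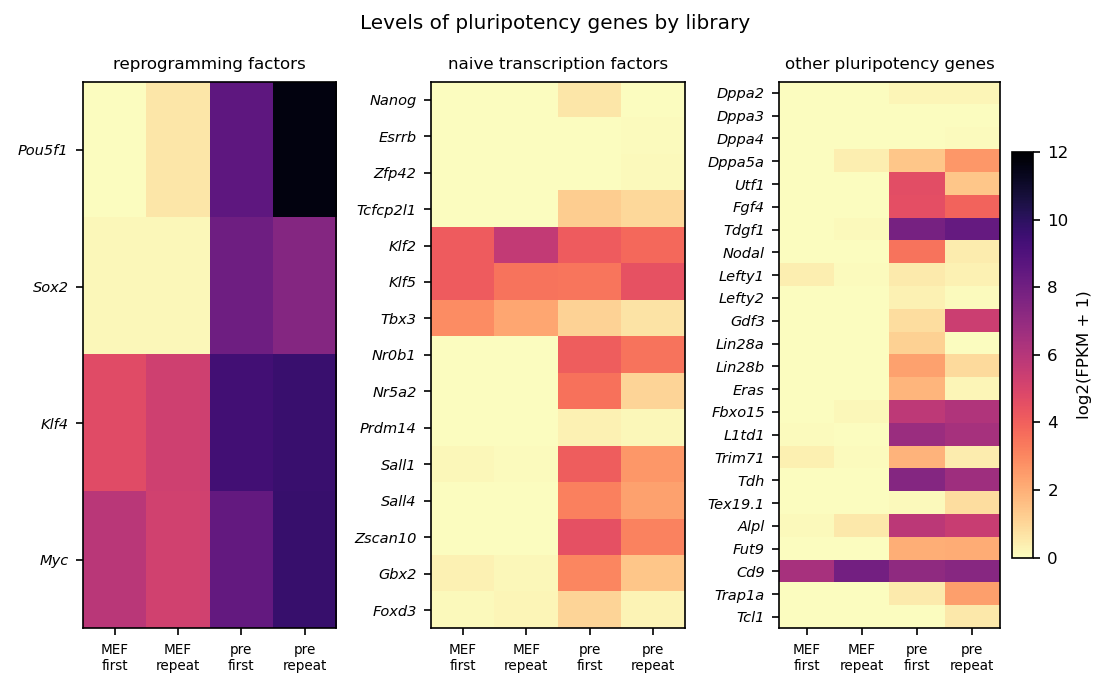
Colour gives log2(FPKM + 1) of the 4 delivered factors, 15 of the 16 naive transcription factors and 24 other pluripotency genes in the first and repeat libraries of MEFs and pre-iPSCs. The delivered factors, Tdgf1, L1td1, Fbxo15, Tdh and Alpl were high in both pre-iPSC libraries, whereas Nanog, Esrrb, Zfp42 and Dppa3 stayed at or near 0.

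Epithelial junction genes rose in part. Of 38 such genes 35 were tested, 21 were called higher and 2 lower, against 7.39% and 9.0% of all tested genes. Of the 35, 3 were below 0.5 FPKM in all 4 libraries, and 9 were listed at 0 in both MEF libraries and could not be called lower. Cdh1, which encodes E-cadherin, stood at 0.111 and 0 FPKM in MEFs and 27 and 6.56 FPKM in pre-iPSCs (log2 change 3.79 ± 0.49 (SE), adjusted p = 0.00362, limma). Epcam, an epithelial adhesion molecule, stood at 0.0501 and 0.0387 FPKM in MEFs and 34.1 and 6.48 FPKM in pre-iPSCs (log2 change 3.96 ± 0.66 (SE), adjusted p = 0.00852, limma). In both genes the groups did not overlap, and the first pre-iPSC library was the higher of the pair. Lsr, a component of tricellular junctions, rose from 0.34 and 0.406 to 26.3 and 18.1 FPKM, and Dsg2, a desmosomal cadherin, from 0.0507 and 0.0262 to 15.6 and 9.97 FPKM. The membrane protease St14 (matriptase) and its inhibitors Spint1 and Spint2 rose together, to 10.6 and 16.6 FPKM (St14), 10.8 and 15.8 FPKM (Spint1) and 61.6 and 77.3 FPKM (Spint2) from 0.122 and 0.0757 FPKM (St14), 0.27 and 0.104 FPKM (Spint1) and 2.43 and 7.49 FPKM (Spint2). Esrp1, which splices transcripts into their epithelial forms, was listed at 0 and 0 FPKM in MEFs and at 15.5 and 3.57 FPKM in pre-iPSCs, and Ovol2, a repressor of mesenchymal genes, at 0 and 0 FPKM in MEFs and 4.59 and 1.26 FPKM in pre-iPSCs. Krt8 and Krt19 rose to 14 and 20.3 FPKM (Krt8) and 95.6 and 231 FPKM (Krt19). The exceptions were Cdh3 (P-cadherin), which fell from 22.1 and 6.62 to 1.37 and 0.243 FPKM (log2 change -2.95, adjusted p = 0.00496, limma), and Krt18, the usual partner of Krt8, at 4.42 and 5.08 FPKM in MEFs and 1.06 and 0.837 FPKM in pre-iPSCs (log2 change -1.56, adjusted p = 0.0361, limma). Without the first MEF library, either pre-iPSC library or either iPSC library, only 1 member was called lower, since Krt18 was no longer called. Grhl2, a master regulator of epithelial junctions, was at 0.0635 and 0.0283 FPKM in pre-iPSCs and was not tested, and the tight junction genes Ocln and Cldn7 were at 2.79 and 0.605 FPKM (Ocln) and 2.03 and 0.422 FPKM (Cldn7) without a call. Without the filter the calls of Esrp1, Krt18 and Ovol2 were lost.

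Most mesenchymal transcription factors that were tested fell. Of 16 factors 13 were tested, 10 were called lower (9.0% of all tested genes were) and 0 higher, and the median change was -3.27. Snai1 and Snai2, repressors that bind E-box motifs in epithelial promoters, went from 52.6 and 41.9 FPKM (Snai1) and 49.5 and 28.7 FPKM (Snai2) in MEFs to 10.9 and 3.09 FPKM (Snai1) and 4.03 and 1.89 FPKM (Snai2) in pre-iPSCs. Twist1 and Twist2 went from 27.4 and 44.9 FPKM (Twist1) and 60.2 and 93.3 FPKM (Twist2) to 3.78 and 1.92 FPKM (Twist1) and 8.71 and 2.95 FPKM (Twist2). Prrx1 and Prrx2, homeobox factors of mesenchyme, fell by 8.98-fold and 33.8-fold (Prrx1) and by 8.79-fold and 63.9-fold (Prrx2) in the 2 tables. Foxc2 fell from 22.1 and 19 to 0.984 and 0.398 FPKM (log2 change -3.69 ± 0.35 (SE), adjusted p = 0.00145, limma). In each of these genes both pre-iPSC libraries were below both MEF libraries, and the repeat library was the lower one, as in 68.8% of all genes called lower. Zeb1, another E-box repressor, stood at 18.2 and 18.8 FPKM in MEFs and 8.65 and 9.45 FPKM in pre-iPSCs and did not pass the test (adjusted p = 0.108, limma), whereas its paralog Zeb2 fell from 11.7 and 4.22 to 0.922 and 0.309 FPKM. Osr2 stood at 0.987 and 1.43 FPKM in MEFs and 3.23 and 2.22 FPKM in pre-iPSCs, without a call. Without the filter Zeb2 was not called.

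The Snail-type E-box, searched as CAGGTG or its reverse complement CACCTG, is a core motif bound by Snail and Zeb repressors. RefSeq start regions (GRCm38.p6, 250 bases before to 50 after a start) were matched to 640 of the 916 higher and 778 of the 1116 lower genes. The motif was present in 26.0% of 874 start regions of higher genes, in 13.2% of 1034 of lower genes, in 17.9% of 9475 of genes tested and not called, and in 20.2% of all 32851. Median CpG counts of these regions were 15, 17, 21 and 7 in the same order, so the sets were not matched in base content. A gene with several start regions was counted more than once. The CArG box, the motif of serum response factor in muscle and actin genes, was searched in its strict form, with no mismatch allowed, and was present in 1.14% of those of higher genes, 3.0% of lower genes, 1.18% of genes not called and 1.63% of all. Start regions of the epithelial genes Epcam, Cldn4 and Lsr and of Tdgf1, which rose, and of the contractile gene Myl9, which fell, are printed because they hold such matches, given in capitals. Start regions of the contractile genes Acta2 and Cnn1 and of Twist2, which also fell, held no exact match to either and are not printed, and boxes with a mismatch were not counted. A match is a description and not a binding site.
Epcam, chr17:87635729-87636028, plus strand: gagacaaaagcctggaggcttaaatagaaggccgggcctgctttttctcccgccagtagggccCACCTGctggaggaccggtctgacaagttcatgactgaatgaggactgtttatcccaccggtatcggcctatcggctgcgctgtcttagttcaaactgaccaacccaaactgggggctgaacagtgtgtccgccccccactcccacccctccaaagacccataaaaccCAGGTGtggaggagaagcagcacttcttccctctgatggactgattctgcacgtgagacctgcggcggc
Cldn4, chr5:134946885-134947184, minus strand: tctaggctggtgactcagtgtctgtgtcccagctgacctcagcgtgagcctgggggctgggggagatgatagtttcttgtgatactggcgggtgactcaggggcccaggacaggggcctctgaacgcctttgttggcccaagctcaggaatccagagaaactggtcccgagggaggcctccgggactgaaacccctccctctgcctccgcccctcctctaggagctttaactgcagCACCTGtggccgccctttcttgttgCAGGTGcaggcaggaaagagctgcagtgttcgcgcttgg
Lsr, chr7:30973420-30973719, minus strand: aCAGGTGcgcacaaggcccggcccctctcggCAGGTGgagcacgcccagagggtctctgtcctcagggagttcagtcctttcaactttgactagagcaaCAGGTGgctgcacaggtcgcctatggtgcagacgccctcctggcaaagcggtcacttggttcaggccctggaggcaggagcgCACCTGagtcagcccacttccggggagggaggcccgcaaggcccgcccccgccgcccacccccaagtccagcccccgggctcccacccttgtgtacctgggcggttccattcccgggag
Tdgf1, chr9:110946109-110946408, minus strand: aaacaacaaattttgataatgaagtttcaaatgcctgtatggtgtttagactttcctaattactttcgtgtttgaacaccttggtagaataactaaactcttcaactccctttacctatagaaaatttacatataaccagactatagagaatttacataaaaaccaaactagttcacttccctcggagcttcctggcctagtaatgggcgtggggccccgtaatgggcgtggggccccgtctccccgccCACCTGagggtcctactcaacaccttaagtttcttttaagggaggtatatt
Myl9, chr2:156775214-156775513, plus strand: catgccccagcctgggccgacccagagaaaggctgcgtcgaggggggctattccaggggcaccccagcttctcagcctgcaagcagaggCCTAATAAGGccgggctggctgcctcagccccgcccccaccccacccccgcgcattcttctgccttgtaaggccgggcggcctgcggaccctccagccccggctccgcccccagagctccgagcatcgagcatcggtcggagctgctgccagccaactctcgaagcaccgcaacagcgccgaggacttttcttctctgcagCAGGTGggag
Epcam and Cldn4 held 2 E-boxes each, Lsr 4 and Tdgf1 1, and Myl9 held 1 E-box and 1 CArG box. Cldn4 encodes a claudin of tight junctions and rose from 0.347 and 0.0446 to 4.06 and 4.4 FPKM. The Cldn4 call was lost without the filter.

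Contractile genes, which build the actin stress fibers of fibroblasts and smooth muscle, showed the lowest median of the lists. All 17 were tested, 16 were called lower and 0 higher, against 9.0% and 7.39% of all tested genes, and the median change was -4.06. Acta2 (smooth muscle actin, mm9 chr19:34315581-34329826) stood at 5762 and 9151 FPKM in MEFs and 82.6 and 61.7 FPKM in pre-iPSCs, a fall of 69.7-fold and 148-fold (log2 change -6.65 ± 0.50 (SE), adjusted p = 0.000887, limma). Tagln, an actin-binding protein, fell by 43.6-fold and 98.3-fold, from 1807 and 3183 to 41.5 and 32.4 FPKM. The light chain gene Myl9 fell from 789 and 1340 to 21.5 and 9.85 FPKM and Cnn1, which encodes calponin, from 238 and 385 to 2.52 and 2.14 FPKM (log2 change -6.51 ± 0.38 (SE), adjusted p = 0.000373, limma). In these 4 genes the cell types lay at least 36.7-fold apart within each table. The tropomyosin genes Tpm1 and Tpm2 fell by 24.5-fold and 16.1-fold (Tpm1) and by 22.5-fold and 27.4-fold (Tpm2). Des, an intermediate filament gene of muscle, was not called, at 16.3 and 25.2 FPKM in MEFs and 4.86 and 19.3 FPKM in pre-iPSCs.

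Of 28 matrix genes, all tested, 24 were called lower and 0 higher, against 9.0% and 7.39% of all tested genes, with a median change of -3.31. Col1a1 and Col1a2, the chains of type I collagen, fell from 2144 and 1614 FPKM (Col1a1) and 1206 and 1761 FPKM (Col1a2) to 93.7 and 27.7 FPKM (Col1a1) and 56.3 and 19.5 FPKM (Col1a2) (log2 change -5.16 ± 0.51 (SE), adjusted p = 0.00158 for Col1a1, limma). The cross-linking enzyme gene Lox fell from 514 and 212 to 9.09 and 4.35 FPKM, and Thbs1, a matrix protein that activates latent TGF-beta, from 1658 and 607 to 46.4 and 23.6 FPKM. In 25 of the 28 genes the repeat pre-iPSC library was the lower of the pair, against 68.8% of all genes called lower and 60.0% of all tested genes. The genes that did not pass were Fn1 (1317 and 397 against 237 and 245 FPKM), Tnc (664 and 146 against 82.4 and 21.1 FPKM) and the metalloproteases Mmp2 and Mmp3. Mmp2 stood at 40.8 and 74 FPKM in MEFs and 34 and 55.8 FPKM in pre-iPSCs, and Mmp3 at 1.8 and 0.404 FPKM in MEFs and 12.6 and 10.5 FPKM in pre-iPSCs (log2 change 2.66, adjusted p = 0.0555, limma). Without the repeat pre-iPSC library 12 matrix genes were called lower. Mmp3 was called higher without the first MEF, the repeat pre-iPSC or either iPSC library. The 28 genes together summed to 10.6% of the MEF level in the first table and 7.28% in the repeat table. Feeder MEFs express these genes too, and their part in the remaining level was not tested.

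Other fibroblast genes moved less evenly. Of 20 tested, 9 were called lower and 1 higher, with a median change of -1.64, and without the repeat pre-iPSC library 4 were called lower. Over all tested genes 9.0% were called lower and 7.39% higher, and the 1 of 20 higher was a share near the latter. Thy1, a surface antigen lost early in reprogramming, fell from 496 and 319 to 87.1 and 26.3 FPKM, and Cdh11, a mesenchymal cadherin, from 172 and 113 to 14.6 and 3.14 FPKM. Fbln5, a protein of elastic fibers, went from 66.9 and 142 to 2.54 and 0.512 FPKM (log2 change -5.41 ± 0.57 (SE), adjusted p = 0.00197, limma). Vim (vimentin) was lower but remained abundant, at 845 and 754 FPKM against 3302 and 5248 FPKM. Several fibroblast genes were not called. Cd44, a hyaluronan receptor, stood at 193 and 171 FPKM in MEFs and 95.7 and 85.7 FPKM in pre-iPSCs, and Dcn (decorin) at 9.0 and 36.6 FPKM in MEFs and 21.9 and 4.37 FPKM in pre-iPSCs, with the libraries overlapping in Dcn. Nt5e (CD73), an enzyme that makes extracellular adenosine, rose from 1.3 and 1.43 to 21.2 and 12.5 FPKM (log2 change 2.87 ± 0.39 (SE), adjusted p = 0.00416, limma). The call of Vim was lost without the filter.

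**Figure D3:**
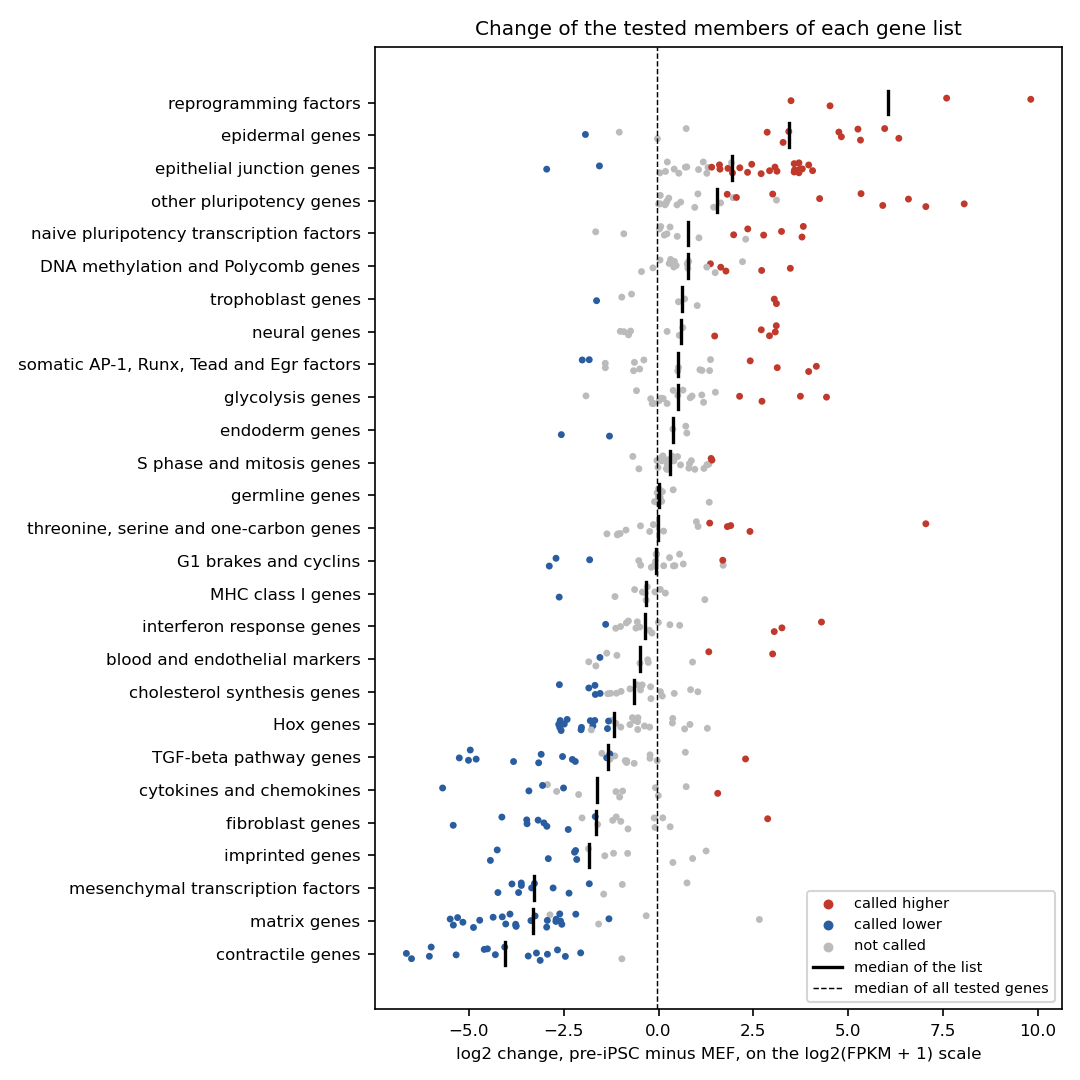
Points are the tested members of each list, placed by the log2 change of pre-iPSCs against MEFs (red called higher, blue called lower, grey not called), with the median of the list as a bar and that of all tested genes (-0.04) as a dashed line. List medians ran from -4.06 for contractile genes to 6.05 for the delivered factors. Most germline genes were tested through the iPSC libraries alone, and the 4 tested genes of chromosome Y are not drawn.

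Where a list had 0 calls in a direction, at most 1 member had an unadjusted p below 0.05 in that direction (limma), except 4 one-carbon genes that were lower.

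In the TGF-beta pathway 24 genes were tested, 12 were called lower and 1 higher, against 9.0% and 7.39% of all tested genes. The 1 higher gene was not above that share, and the median change was -1.33. The ligand genes Tgfb1, Tgfb2 and Tgfb3 fell from 66.4 and 26.4 FPKM (Tgfb1), 27.9 and 39.4 FPKM (Tgfb2) and 111 and 38.9 FPKM (Tgfb3) to 13.6 and 4.42 FPKM (Tgfb1), 9.44 and 2.34 FPKM (Tgfb2) and 3.43 and 4.04 FPKM (Tgfb3), and Inhba, an activin subunit, from 179 and 131 to 2.83 and 5.39 FPKM (log2 change -4.96 ± 0.43 (SE), adjusted p = 0.00111, limma). The receptor genes were not called, with Tgfbr1 at 9.17 and 4.6 FPKM in MEFs and 3.76 and 2.74 FPKM in pre-iPSCs, and Tgfbr2 at 21.2 and 19.3 FPKM in MEFs and 23.5 and 16.4 FPKM in pre-iPSCs. The signal transducers Smad3 and Smad4 were not called either, at 12.6 and 10.7 FPKM (Smad3) and 22.6 and 18.4 FPKM (Smad4) in pre-iPSCs. Target genes and antagonists were among the calls. Ctgf, a classic target, fell by 23.9-fold and 3.42-fold in the first and the repeat libraries. Fst, an activin-binding protein, fell from 68.4 and 128 to 2.5 and 2.26 FPKM. The latent TGF-beta binding protein gene Ltbp4 rose from 11.4 and 3.98 to 39.3 and 35.6 FPKM while Ltbp2 fell from 39.2 and 29.2 to 5.88 and 1.42 FPKM. The lower count was 6 without the repeat pre-iPSC library and 7 without either iPSC library, and the higher count was 2 without the first MEF library and 0 without the repeat pre-iPSC library. Without the filter Tgfb1, Tgfb2 and Ctgf lost their calls.

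Epidermal genes were switched on in part. Of 20 genes 13 were tested, 9 were called higher and 1 lower, the latter a share near that of all tested genes (7.39% higher and 9.0% lower). Of the 13, 3 were listed at 0 in both MEF libraries and could not be called lower. The median change of the tested members was 3.43. The keratin genes Krt13 and Krt17 went from 0.0835 and 0 FPKM (Krt13) and 0 and 0 FPKM (Krt17) to 42 and 35.7 FPKM (Krt13) and 97.1 and 15.3 FPKM (Krt17), and Krt14, a basal keratin, from 0.0638 and 0.0492 to 13.48 and 6.28 FPKM. Lgals7, a galectin of stratified epithelia, rose from 0.464 and 2.48 to 152 and 215 FPKM (log2 change 6.33 ± 0.38 (SE), adjusted p = 0.000386, limma), and Sfn (14-3-3 sigma) from 6.85 and 0.763 to 128 and 84 FPKM. Sprr2b, a cornified envelope gene of a family of near copies, was listed at 0 and 0 FPKM in MEFs and 129 and 28.7 FPKM in pre-iPSCs. The transglutaminase genes Tgm1 and Tgm3 reached 15.5 and 7.32 FPKM (Tgm1) and 5.45 and 7.19 FPKM (Tgm3). Other markers of basal epidermis were at most 1.06 FPKM. Trp63, its master regulator, was at 0.154 and 0 FPKM in pre-iPSCs, Krt5, the partner of Krt14, at 1.06 and 0.168 FPKM, and Dsg3 at 0.154 and 0.103 FPKM. Krt7, a keratin of simple epithelia, fell from 2.48 and 9.38 to 0.488 and 0.676 FPKM, a call lost without the repeat pre-iPSC library or either iPSC library. Perp, a desmosome gene, rose to 221 and 199 FPKM from 0.603 and 37.2 FPKM, and the MEF libraries differed widely. The calls of Krt7 and Perp were lost without the filter.

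Genes of other lineages were called in both directions. In the neural list 5 of 12 tested genes were called higher and 0 lower, against 7.39% and 9.0% of all tested genes. Of the 12, 3 were listed at 0 in both MEF libraries and could not be called lower. Pax6, an eye and forebrain regulator, rose from 0 and 0.0307 to 4.42 and 7.1 FPKM, Otx2 from 0 and 0 to 6.8 and 8.44 FPKM and Stmn2, a microtubule protein of neurons, from 14 and 91.2 to 301 and 263 FPKM. Olig2 and Dcx were near 0 throughout, and Tubb3 was at 22.9 and 25.1 FPKM in MEFs and 67.8 and 1.23 FPKM in pre-iPSCs, which overlapped. The neural count was 3 without the first pre-iPSC library or either iPSC library, and 1 gene was called lower without either MEF or the first pre-iPSC library. In the trophoblast list 2 of 8 tested genes were called higher and 1 lower, against 7.39% and 9.0% of all tested genes. The higher ones were Tcfap2a and Tcfap2c (AP-2 factors of trophoblast, epidermis and germ cells), at 19.5 and 11.6 FPKM (Tcfap2a) and 11.3 and 5.02 FPKM (Tcfap2c) from 1.07 and 0.833 FPKM (Tcfap2a) and 0 and 0 FPKM (Tcfap2c), and Gata2 was called lower, a call lost without either pre-iPSC library. Without the first pre-iPSC library 1 of the 2 rises was called. Cdx2 and Elf5, which define the trophoblast lineage, were listed at 0 in all 4 libraries. In the endoderm list 0 of 5 tested genes were called higher and 2 lower, Gata6 and Dab2. Dab2, an endocytic adaptor, fell from 31.3 and 27.4 to 4.91 and 3.44 FPKM. Sox17 was listed at 0 in all 4 libraries. The lower count was 1 without the first MEF, the first pre-iPSC or either iPSC library and 0 without the repeat pre-iPSC library. Gata2 and Stmn2 lost their calls without the filter.

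Of 22 germline genes 19 were below 0.5 FPKM in all 4 libraries. The filter kept 20 for the test, of which 18 were below 0.5 FPKM in all 4 and passed only through the iPSC libraries, so their count of 0 calls (0 at an unadjusted p below 0.05 in limma) shows little beyond these low levels. Dazl and Zscan4c were listed at 0 in MEFs and pre-iPSCs alike, and Ddx4 (Vasa) was at 0.0585 and 0 FPKM in pre-iPSCs. Rec8, a meiotic cohesin, was the highest, at 0.243 and 4.12 FPKM, and was called higher without the first MEF or the first pre-iPSC library. Zscan4c belongs to a cluster of near-identical copies whose reads the counting could split.

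Markers of blood and endothelium, cells that a MEF preparation can hold, summed to 49.8 and 39.3 FPKM over 16 genes in MEFs and to 25.7 and 39.4 FPKM in pre-iPSCs. Of 11 tested, 2 were called higher and 1 lower, where 7.39% and 9.0% of all tested genes were. The defining markers Ptprc (CD45) and Cdh5 (VE-cadherin) were below 0.5 FPKM in all 4 libraries. Tek, an endothelial receptor, rose from 0.021 and 0.0325 to 12.7 and 3.94 FPKM and Pecam1, which pluripotent cells also express, from 0 and 0 to 1.22 and 1.81 FPKM. Emcn fell from 1.22 and 4.5 to 0.179 and 0.212 FPKM. With any 1 of the 6 libraries left out 1 gene was called higher, and the lower count was 4 without the repeat MEF library and 0 without the repeat pre-iPSC library. Emcn and Pecam1 were not called without the filter.

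Immediate early and related somatic factors were compared because AP-1, Runx and Tead factors occupy enhancers of fibroblasts. Of 18 tested, 4 were called higher and 2 lower, against 7.39% and 9.0% of all tested genes, and the share lower was near the latter. Fos and Fosb, AP-1 subunits induced by growth signals and by handling of cells, rose from 20.9 and 2.81 FPKM (Fos) and 28.2 and 1.01 FPKM (Fosb) to 185 and 107 FPKM (Fos) and 181 and 102 FPKM (Fosb). Atf3, a stress-induced factor, rose from 3.2 and 3.4 to 26.1 and 51 FPKM (log2 change 3.13 ± 0.39 (SE), adjusted p = 0.00314, limma). The fibroblast AP-1 subunit Fosl1 overlapped between the groups, at 14 and 1.27 FPKM in MEFs and 3.1 and 2.33 FPKM in pre-iPSCs. Runx2, a regulator of bone, fell from 9.89 and 6.13 to 1.4 and 0.983 FPKM, and Tead3 fell while Tead4 rose, at 27.3 and 18 FPKM (Tead3) and 4.84 and 0.764 FPKM (Tead4) in MEFs and 5.22 and 5.87 FPKM (Tead3) and 18.2 and 14.3 FPKM (Tead4) in pre-iPSCs. The lower count was 6 without the repeat MEF library, 1 without the first pre-iPSC or either iPSC library and 0 without the repeat pre-iPSC library. Fosb and Tead4 were not called without the filter.

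Among cytokines 14 were tested, 4 were called lower and 1 higher, against 9.0% and 7.39% of all tested genes, and the share higher was near the latter. Cxcl12, a chemokine of stromal cells, fell from 182 and 290.1 to 5.88 and 1.89 FPKM (log2 change -5.69 ± 0.51 (SE), adjusted p = 0.00121, limma). The growth factor Csf1 fell from 181 and 62.7 to 14.4 and 5.57 FPKM, and the bone morphogenetic protein antagonist Grem1 and Fgf7 fell with it. Cxcl1 was called higher at 17.4 and 6.51 against 3.47 and 2.57 FPKM, a call lost without the first MEF, the first pre-iPSC or either iPSC library, and without the first MEF library 8 were called lower. Of 16 tested interferon response genes 3 were called higher and 1 lower, against 7.39% and 9.0% of all tested genes. Ifitm1 rose from 0.388 and 4.5 to 20.1 and 138 FPKM (log2 change 4.29 ± 0.51 (SE), adjusted p = 0.00276, limma), Bst2 (tetherin) from 9.16 and 44.9 to 131 and 320.1 FPKM and Oas1a from 0 and 0.17 to 8.42 and 7.5 FPKM. Isg15 and Irf7, common signs of an interferon response, were at 1.21 and 0.60 FPKM (Isg15) and 0.599 and 0.452 FPKM (Irf7) in pre-iPSCs and were not called. Ifit2 was called lower, 2 genes were lower without the first MEF library and 0 without either pre-iPSC library. Ifitm genes are close copies and their reads may be shared. Of 11 tested MHC class I genes 1 was called lower, a share near the 9.0% of all tested genes, and 0 higher. It was B2m, at 654 and 1727 FPKM in MEFs and 251 and 118 FPKM in pre-iPSCs. That count was 4 without the first MEF library and 0 without the repeat pre-iPSC or either iPSC library, and 1 gene was called higher without the repeat MEF library. Calls of B2m, Bst2, Cxcl1, Grem1 and Ifit2 were lost without the filter.

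Of 26 genes of S phase and mitosis 2 were called higher, a share near the 7.39% of all tested genes. They were the helicase subunits Mcm5 and Mcm7, which rose from 28.7 and 13.7 FPKM (Mcm5) and 45.8 and 27.3 FPKM (Mcm7) to 81.8 and 35 FPKM (Mcm5) and 129 and 70.8 FPKM (Mcm7). That count was 5 without the first MEF library and 0 without either pre-iPSC or either iPSC library. At an unadjusted p below 0.05 in limma, 7 of the 26 were higher and 0 lower. In 24 of the 26 the first pre-iPSC library was above the repeat one, against 7437 of all 12401 tested genes. Mki67, a proliferation marker, stood at 49.2 and 5.7 FPKM in MEFs and 61 and 32.9 FPKM in pre-iPSCs. Among 18 regulators of G1, 3 were called lower and 1 higher, against 9.0% and 7.39% of all tested genes. Cdkn2b (p15) fell from 40.2 and 95 to 11.9 and 6.23 FPKM, Cdkn2c (p18) from 3.18 and 8.2 to 0.579 and 0.96 FPKM and Ccnd2 (cyclin D2) from 143 and 177 to 23.9 and 17.9 FPKM. Rb1, the retinoblastoma gene, rose from 5.29 and 4.93 to 19.5 and 17.9 FPKM. Cdkn2a, whose products p16 and p19 oppose reprogramming, was higher in both pre-iPSC libraries, at 103 and 172 against 24 and 67.3 FPKM, and did not pass the test (adjusted p = 0.0806, limma). Cdkn1a (p21) overlapped between the groups, at 249 and 652 FPKM in MEFs and 342 and 434 FPKM in pre-iPSCs. Without the repeat pre-iPSC library 0 of the G1 genes were called lower, and the count of those higher was 0 without either pre-iPSC library and 2 without the repeat MEF library. Cdkn2c and Rb1 lost their calls without the filter.

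Metabolic genes were called in part of each list. Tdh, the threonine dehydrogenase on which mouse stem cells depend for one-carbon units, was listed at 0 in both MEF libraries and at 171 and 100.3 FPKM in pre-iPSCs. Of the 16 genes of threonine, serine and one-carbon metabolism 5 were called higher and 0 lower, where 7.39% and 9.0% of all tested genes were. Gcat, which acts after Tdh, rose from 5.36 and 7.36 to 32 and 21.5 FPKM, and Mthfd1 from 22.4 and 11.2 to 123 and 63.3 FPKM. The higher count was 2 without either pre-iPSC and 3 without either iPSC library, and 3 genes were called lower without the first MEF library. Of 21 glycolysis genes 4 were called higher (7.39% of all tested genes were) and 0 lower, with 1 lower without the first MEF library. The glucose transporter genes Slc2a1 and Slc2a3 rose from 57.3 and 61.7 FPKM (Slc2a1) and 0.894 and 0.999 FPKM (Slc2a3) to 230.2 and 303 FPKM (Slc2a1) and 67.8 and 24.4 FPKM (Slc2a3). Pdk1, a pyruvate dehydrogenase kinase, rose from 1.29 and 3.35 to 14.3 and 27.5 FPKM. Gapdh stood at 2691 and 3591 FPKM in MEFs and 3186 and 3101 FPKM in pre-iPSCs. The 20 cholesterol synthesis genes had a median change of -0.66. Both pre-iPSC libraries lay below both MEF libraries in 10 of them (29.3% of all tested genes) and above in 2 (24.6%). Of the 20, 5 were called lower (9.0% of all tested genes were) and 0 higher. Among those lower were Sqle (52.1 and 47.4 to 20.0 and 11.1 FPKM) and Cyp51 (42.2 and 62.4 to 13.3 and 17.7 FPKM). That count was 1 without the first pre-iPSC library, 0 without the repeat one and 2 without either iPSC library, and 1 gene was called higher without the first MEF library. Gcat and Sqle lost theirs without the filter.

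Regulators of chromatin rose in part. Of 20 genes of DNA methylation and Polycomb 5 were called higher and 0 lower, against 7.39% and 9.0% of all tested genes, with a median of 0.76. Phc1, a subunit of Polycomb complex 1, rose from 10.9 and 4.46 to 88.9 and 88 FPKM (log2 change 3.47 ± 0.42 (SE), adjusted p = 0.00297, limma) and Jarid2, a partner of complex 2, from 2.86 and 1.26 to 21.8 and 15.5 FPKM. Uhrf1, which guides maintenance methylation, rose from 32.5 and 22.4 to 95.9 and 52.6 FPKM. Tet2, which oxidizes methylcytosine, rose from 0.946 and 0.282 to 5.44 and 3.54 FPKM. Dnmt3l, a cofactor of de novo methylation in stem cells, was at 0.0511 and 0 FPKM, and Dnmt3b was at 15.6 and 1.63 FPKM without a call (adjusted p = 0.0647, limma). The count of higher genes was 8 without the first MEF library, 2 without the first pre-iPSC library and 3 without the repeat pre-iPSC or either iPSC library. Tet2 and Uhrf1 lost their calls without the filter.

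Imprinted genes and Hox genes were called in 1 direction. Of 13 imprinted genes tested, 6 were called lower and 0 higher, against 9.0% and 7.39% of all tested genes, with a median of -1.85. Igf2, a fetal growth factor, fell from 680.4 and 582 to 72.7 and 13.8 FPKM (log2 change -4.25 ± 0.53 (SE), adjusted p = 0.00319, limma), and Slc38a4, an amino acid transporter, from 52.1 and 21 to 1.19 and 0.144 FPKM. Dlk1, which restrains adipocyte differentiation, fell from 9.11 and 50.2 to 4.02 and 0.832 FPKM. The lower count was 2 without the repeat pre-iPSC library and 3 without either iPSC library, and 1 gene was called higher without the repeat MEF library. The 39 Hox genes, which record the position of a fibroblast along the body, were added as a family after values had been seen. Of 30 tested, 13 were called lower and 0 higher, against 9.0% and 7.39% of all tested genes, with a median of -1.18. Hoxb8 fell from 12.3 and 10.0 to 1.17 and 0.822 FPKM and Hoxc6 from 25.6 and 50.7 to 7.5 and 8.66 FPKM, whereas Hoxa7 was not called at 7.55 and 8.75 FPKM in MEFs and 14.7 and 7.92 FPKM in pre-iPSCs. Without the repeat pre-iPSC library 1 Hox gene was called lower, without the repeat MEF or either iPSC library 8 were, and 2 were called higher without the first MEF or the first pre-iPSC library. Genes of chromosome Y were expressed in both cell types, with Eif2s3y at 18.7 and 11 FPKM in MEFs and 14.9 and 18.2 FPKM in pre-iPSCs. Of 4 tested, 0 were called and 1 had an unadjusted p below 0.05 in limma. Dlk1 was not called without the filter.

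The 12 largest rises included genes on none of the lists. Klk1, a secreted kallikrein protease (mm9 chr7:51480807-51484987), stood at 0 and 0.421 FPKM in MEFs and 585 and 1178 FPKM in pre-iPSCs (log2 change 9.45 ± 0.43 (SE), adjusted p = 0.000275, limma). Slc38a5, a glutamine transporter, went from 0 and 0.174 to 553 and 369 FPKM, and Fgfbp1, a secreted carrier of fibroblast growth factors, from 0 and 0.0746 to 109.8 and 203 FPKM. All 3 went from near 0 to above 100 FPKM in both libraries. Fetub, a secreted protease inhibitor, rose from 0.677 and 0.314 to 136 and 190.2 FPKM. Nccrp1, Tac2 (a tachykinin precursor) and Cyp2b23 (a cytochrome P450 of a family of close copies) were listed at 0 in both MEF libraries and at 121 and 114 FPKM (Nccrp1), 62.1 and 179 FPKM (Tac2) and 140.3 and 76.9 FPKM (Cyp2b23) in pre-iPSCs. The largest falls that are not named above were Ankrd1 (217 and 117 to 1.3 and 2.57 FPKM), Fhl1 (221 and 253 to 4.88 and 3.61 FPKM), Acta1 (155 and 285 to 2.86 and 4.56 FPKM) and Wisp1 (122 and 95.8 to 3.12 and 0.709 FPKM). Ankrd1 responds to mechanical tension, Fhl1 and Acta1 are muscle genes, and Wisp1 encodes a matricellular protein.

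**Figure D4:**
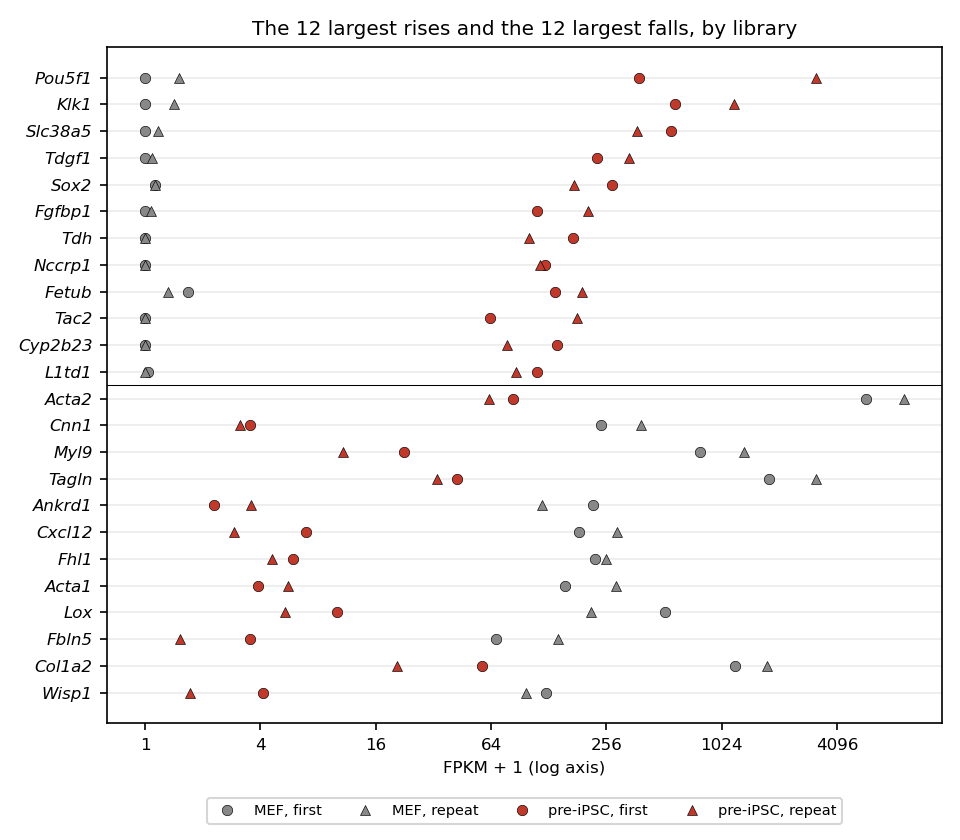
FPKM + 1 (log axis) of the 12 largest rises and the 12 largest falls among called genes, with circles for the first and triangles for the repeat libraries, grey for MEFs and red for pre-iPSCs. The 2 pre-iPSC libraries lay on one side of the 2 MEF libraries in every called gene, and so in all 24 shown. Pou5f1, at 378 and 3184 FPKM, had the widest pre-iPSC pair among the rises.

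Genes were counted as switched when both libraries of one cell type held at least 5 FPKM and both of the other less than 0.5 FPKM. By that rule 132 genes (0.655% of 20156) were switched on in pre-iPSCs and 22 (0.109%) switched off. Besides Klk1, Slc38a5, Tdgf1, Sox2, Fgfbp1 and Tdh, which led those switched on, the rule took Krtdap, a keratinocyte differentiation protein (177 and 50.0 FPKM in pre-iPSCs), Atp2a3, a calcium pump (107 and 89 FPKM), and Trh, a releasing hormone (168 and 27.7 FPKM), genes chosen after their values were seen. In both iPSC libraries 44 of the 132 genes also held at least 5 FPKM, 28 were below 0.5 FPKM and 60 lay between or differed. Among the 22 switched off, the highest in MEFs was Gjb2, a gap junction gene (37.9 and 40.8 FPKM in MEFs, 0.0341 and 0.122 FPKM in pre-iPSCs). Tnmd and Fmod, genes of tendon, followed at 10.1 and 58.9 FPKM (Tnmd) and 7.82 and 59.9 FPKM (Fmod) in MEFs, and the MEF libraries differed by more than 5-fold in both. ORF63, Eln (elastin) and Adamts5, a protease of proteoglycans, completed the 6 highest at 18.1 and 26.2 FPKM (ORF63), 5.89 and 37.1 FPKM (Eln) and 13.7 and 28.7 FPKM (Adamts5). In both iPSC libraries 14 of the 22 were below 0.5 FPKM as well. Without the filter Eln and Fmod were not called in the test.

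The promoters of these genes were compared by reads of H3K4me3, a mark of active promoters, and of H3K27me3, the mark set by Polycomb complex 2, within 500 bp of the start site (edgeR, 2 libraries a cell type). MEF chromatin was digested with a different amount and time of MNase than pre-iPSC chromatin, and digestion and cell type cannot be told apart. H3K27me3 was called higher in pre-iPSCs at 59 of 4285 promoters (1.38%) and lower at 34 (0.793%). Of 251 promoters of genes with lower expression, 34 were called higher in H3K27me3 and 1 lower, and the median log2 change was 1.05. Of 251 promoters of genes with higher expression, 22 were called lower and 0 higher, and the median was -0.85. The change was above 0 at 84.5% of the former, 13.1% of the latter and 50.2% of all tested promoters. With no filter on low counts, these shares were 74.9%, 19.6% and 46.7%. DESeq2 called 0 promoters in either direction, with 153 higher and 80 lower at an unadjusted p below 0.05, where edgeR had 384 and 310. With a window of 1000 bp in place of 500 bp, 254 of 786 promoters of lower genes were called higher and 169 of 639 of higher genes lower. Without 1 MEF or pre-iPSC library the 34 became 6 to 13 and the 22 became 5 to 11.

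Single promoters, chosen after their values were seen, are given in rpm, that is reads scaled to the total of a library's deposited position calls, which was 12007350 to 15222040 reads. At Pdgfrb, a receptor for platelet-derived growth factor whose RNA fell from 65.9 and 28.1 to 5.19 and 1.57 FPKM, H3K27me3 was 0.0748 and 0.263 in MEFs and 0.841 and 1.21 in pre-iPSCs (log2 change 2.53, adjusted p = 0.0143, edgeR), from 1 and 4 reads against 12 and 16. At Twist2 it was 0.224 and 0.131 in MEFs and 1.33 and 1.36 in pre-iPSCs, at Cdh11 0 and 0.131 in MEFs and 0.63 and 1.06 in pre-iPSCs, and at Col1a1 0.224 and 0.263 in MEFs and 0.911 and 0.983 in pre-iPSCs. In these 4 genes both pre-iPSC libraries were above both MEF libraries. At Tdgf1 H3K27me3 was 0.823 and 0.854 in MEFs and 0 and 0.0756 in pre-iPSCs (log2 change -4.19, adjusted p = 0.0431, edgeR). At Sall4 it was 1.72 and 1.12 in MEFs and 0.21 and 0 in pre-iPSCs, at Pax6 1.2 and 1.12 in MEFs and 0.070 and 0.0756 in pre-iPSCs and at Nccrp1 0.973 and 2.17 in MEFs and 0 and 0.151 in pre-iPSCs. Against the direction of most, H3K27me3 at Schip1, the 1 promoter called lower among genes with lower expression, was 1.57 and 0.985 in MEFs and 0.28 and 0.302 in pre-iPSCs. The expression call of Schip1 was lost without the filter.

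H3K4me3 was called higher at 255 of 14451 promoters (1.76%) and lower at 39 (0.27%). Without TMM, edgeR's scaling between libraries, the balance of calls turned to 28 higher and 164 lower. Of 823 promoters of genes with higher expression 82 were called higher and 0 lower, and their median was 0.33 on the log2 scale. Of 1026 promoters of genes with lower expression 6 were called lower and 2 higher, with a median of -0.13. The change was above 0 at 70.2% of the former, 38.4% of the latter and 49.4% of all promoters. Without TMM the median of all promoters was -0.50 in place of -0.01, that of the higher genes -0.16 and that of the lower genes -0.62, the 82 became 17 and the 6 became 35. DESeq2 called 3 promoters higher and 0 lower, with 586 and 166 at an unadjusted p below 0.05, where edgeR had 1379 and 703. With a window of 1000 bp in place of 500 bp, 131 of 893 promoters of higher genes were called higher and 50 of 1097 of lower genes lower. Without 1 MEF or pre-iPSC library the 82 became 12 to 34. At Fbxo15 H3K4me3 was 0.50 and 0.236 in MEFs and 1.67 and 1.53 in pre-iPSCs (log2 change 2.59, adjusted p = 0.00158, edgeR), and at Phc1 0.583 and 0.236 in MEFs and 2.36 and 2.81 in pre-iPSCs. At the epithelial genes Lsr and Elf3 it was 1.08 and 0.552 (Lsr) and 0.50 and 0.552 (Elf3) in MEFs and 2.21 and 1.69 (Lsr) and 1.37 and 1.77 (Elf3) in pre-iPSCs. The 2 promoters called higher at genes with lower expression were Clcn4-2 and Gp1bb, at 2.5 and 1.81 (Clcn4-2) and 0.333 and 0.552 (Gp1bb) in MEFs and 4.94 and 2.73 (Clcn4-2) and 1.67 and 1.45 (Gp1bb) in pre-iPSCs. At the 38 tested Hox promoters H3K4me3 had a median log2 change of 0.59 after TMM, with 2 called higher and 0 lower, although 13 Hox genes were lower in expression. Median levels at these promoters, without TMM, were 1.58 and 1.02 rpm in MEFs and 1.48 and 1.33 rpm in pre-iPSCs. H3K27me3 at 30 Hox promoters had a median of -0.22, with 1 called lower and 0 higher. At Bgn, a matrix proteoglycan, H3K4me3 fell from 2.75 and 1.66 to 0.228 and 0.482. Pou5f1 stood apart, with H3K4me3 at 3.75 and 0.0788 in the MEF libraries and 8.98 and 8.35 in the pre-iPSC libraries. Its H3K27me3 differed between the MEF libraries in the same way, at 2.84 and 0.197. Whether reads at Pou5f1 came from the endogenous gene, the delivered copy or the Oct4-GFP transgene was not tested. The expression call of Clcn4-2 was lost without the filter.

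**Figure D5:**
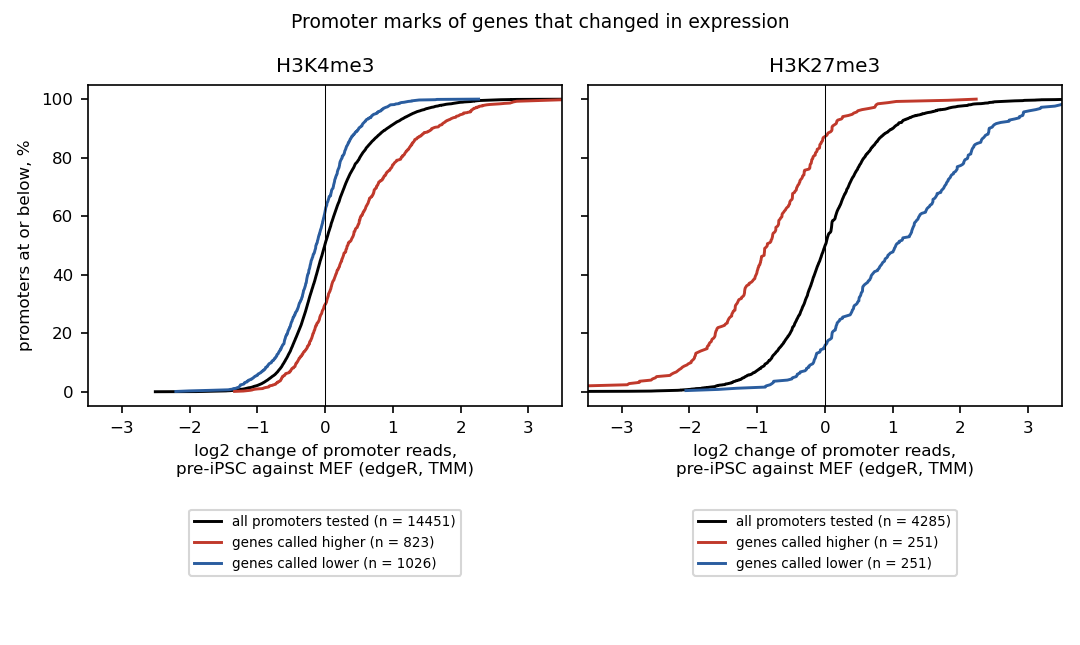
Cumulative share of promoters (y axis, %) by log2 change of promoter reads in pre-iPSCs against MEFs (x axis, edgeR with TMM), for all tested promoters (black) and for genes called higher (red) or lower (blue) in expression. In the order all, higher and lower, the H3K27me3 medians were 0.00, -0.85 and 1.05, and the H3K4me3 medians -0.01, 0.33 and -0.13. For H3K27me3 only 251 of 916 higher and 251 of 1116 lower genes passed the filter on low counts and are drawn.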

How the data were processed

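RNA-seq and ChIP-seq libraries of MEFs, pre-iPSCs and iPSCs were deposited as 1 first and 1 repeat library of each kind. Per the study's methods the authors mapped RNA reads with TopHat 2.0.4 to UCSC genes of mm9 and computed the deposited FPKM values with Cuffdiff 2.0.2, part of Cufflinks. FPKM carries no depth, so counting error is unknown, and the 2 tables were normalized separately. For H3K4me3 and H3K27me3 the authors deposited read counts at positions called by GeneTrack after mapping with Bowtie (1.0.1 for the repeats), on mm9.

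Values were computed in R 4.3.3 and Python 3.11.15. log2(FPKM + 1) was fitted with limma 3.58.1 (trended prior) on 6 libraries with a term for the table, after a filter at a mean of 0.5 FPKM. Reads of calls centred (73 bp from the start of a call) within 500 bp of each start site were tested with edgeR 4.0.16 (TMM, quasi-likelihood) and, as an alternative, DESeq2 1.42.0. Expression calls needed a Benjamini-Hochberg adjusted p below 0.05 and 2-fold or more. Promoter calls needed the adjusted p alone, with no fold minimum. Both fits were tested on simulated data. In expression 0 of 200 changes planted at 2-fold were recovered, 180 at 4-fold and 197 at 8-fold, with 2, 16 and 15 false calls. All other genes were left unchanged in the simulation, unlike in the data. A change planted at 2-fold can also fall below the 2-fold minimum of a call, so these counts do not carry over to the data. At promoters 24 (H3K4me3) and 12 (H3K27me3) of 200 were recovered at 2-fold. A gene not called may still differ by 2-fold or more, as Tnc did at 8.06-fold and 6.91-fold lower in the 2 tables.

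The study calls its 2 libraries of a cell type biological replicates. Which culture, embryo or clone gave each is not stated in the sources used here, and p-values measure the spread between these libraries. The genes named are the 12 largest changes a direction, the 6 highest switched genes a direction and members of 28 gene lists. The lists hold 512 entries, of which 499 were found, and a list's count is of the members found. The comparison and the lists were chosen with earlier results of these data known. Alternatives were another pseudocount, filter, scaling, window and tool, the table term left out, the 4 libraries alone and each library left out in turn.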

Additional observations from a re-analysis of the deposited data

How the results depend on the processing

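Of 3121 values of 196 named genes under the alternatives, 2857 kept their side of the threshold, 209 lost a call and 55 gained one. Among values of called genes and gained calls, 0 reversed direction. For genes that stayed uncalled, direction was not compared. Of 148 named genes called, 38 lost the call under an alternative that kept all MEF and pre-iPSC libraries. With no filter on low values 35 were lost, each named beside its gene group, and Cdkn2b, Mcm5 and Mcm7 under other such alternatives. No gene called in either direction was called in the other under any alternative run. With no filter on low values 586 genes were called higher and 658 lower. The numbers of the libraries are those of the tables, and deviations of same-numbered libraries correlated at 0.346 for MEF and pre-iPSC, -0.205 for MEF and iPSC and 0.112 for pre-iPSC and iPSC. Whether same-numbered libraries share a culture or a batch was not tested. Without the table term (no replicate block) 905 genes were called higher and 1092 lower, and with the 4 libraries alone 690 and 785. Upper quartile scaling gave 1029 higher and 873 lower and moved the median of all genes to 0.10. Leaving out 1 of the 6 libraries in turn, which assumes that the lone library varies like the others, gave 610 to 1198 genes higher and 415 to 1671 lower, lowest without the repeat pre-iPSC library.

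Promoter calls moved more. With a window of 1000 bp, H3K4me3 was called higher at 557 and lower at 134 promoters, and H3K27me3 at 510 and 332. Without TMM H3K4me3 was called higher at 28 and lower at 164, DESeq2 called 3 and 0, and a replicate block left 18 lower. H3K27me3 was called lower at 63 promoters with no filter, and by DESeq2 at 0 in either direction. Leave-one-out counts were 22 to 198 and 3 to 51 for H3K4me3 and 14 to 83 and 7 to 43 for H3K27me3, higher and lower. Genes higher in expression with H3K4me3 higher numbered 131 at 1000 bp, 17 without TMM, 1 by DESeq2 and 12 to 71 in leave-one-out fits. Those with H3K27me3 lower numbered 43 with no filter, 169 at 1000 bp, 0 by DESeq2 and 5 to 28. Genes lower in expression with H3K4me3 lower numbered 50 at 1000 bp, 35 without TMM, 3 with a replicate block, 0 by DESeq2 and 0 to 6. Those with H3K27me3 higher numbered 254 at 1000 bp, 0 by DESeq2 and 6 to 45. The cause of these shifts was not tested.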

Other observations

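Over the autosomes and chromosome X, the median change of tested genes lay between -0.23 (chromosome 18) and 0.14 (chromosome 17). Chromosome Y, with 4 tested genes, is left out here. Chromosome 3 held the largest share of lower genes, 92 of 601 (9.0% of all tested genes were), and chromosome 7 the largest share of higher genes, 106 of 990 (7.39% of all). For chromosome 17 the median was 0.21 in the first and 0.12 in the repeat table, and for chromosome 18 it was -0.26 and -0.15. These are descriptions of sets of neighbouring genes.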
